A study of Rattus norvegicus with 4 samples.

Results

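Translation initiation factors were followed as transcripts in HSC-T6 cells, an immortalised line of rat hepatic stellate cells, the collagen-producing cells of the liver. The set was defined by gene name alone, as the protein-coding rows of the count table whose symbol begins with Eif1 to Eif6, without the eIF2 kinases (Eif2ak). This gave 48 of 32883 annotated genes, namely 4 of eIF2, 5 of eIF2B, 12 of eIF3, 15 of the eIF4 group and 12 others. The study sequenced 4 total RNA libraries, 2 from untreated HSC-T6 cells (C1 and C2, treatment none) and 2 from HSC-T6 cells given ginsenoside Rk1 (R1 and R2, treatment GRK1), a saponin of processed ginseng. The line is the same in both groups, and the labels give no dose, exposure time, vehicle or passage. Whether replicate libraries stem from distinct cultures is also unstated, so each p-value speaks of library-to-library spread, which could be technical alone. With 2 libraries a group, n = 2 holds for every mean and SD below. In bulk RNA, fewer cells with a transcript and less transcript per cell cannot be told apart.

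Library totals ran from 18008586 to 20430930 counts, and 12316 genes were abundant enough to test. Of the mesenchymal markers of stellate cells, Vim stood at 1176 to 1279 CPM (counts scaled to a common library size) and Col1a1 at 7969 to 12485. Desmin (Des, 5.06 to 7.46 CPM) and Acta2 (0.329 to 3.6) were low, and no read was counted for Lrat or Reln, which mark vitamin A-storing stellate cells. Of the 8 stellate markers, Col1a1, Col3a1 and Acta2 were called lower with Rk1, and their part in the results below was not tested. The markers of 4 other liver cell types were summed for each library. They reached at most 0.33 CPM for hepatocytes, 0.165 for endothelium and 0.334 for cholangiocytes. For macrophages and leukocytes the sum was 1.03 to 1.84 CPM, most of it Cd68, with Ptprc and Adgre1 at 0.

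Initiation is the step at which a ribosome is placed on the start codon of an mRNA. The GTPase eIF2 carries the initiator tRNA to the small ribosomal subunit, and eIF2B recharges eIF2 with GTP after each round. Stress kinases phosphorylate the alpha subunit of eIF2, which then blocks eIF2B and slows initiation. eIF3 is the large scaffold that joins the small subunit to the mRNA. eIF4E binds the cap, eIF4G bridges it to eIF3, and eIF4A unwinds the leader, while eIF4E-binding proteins keep eIF4E from eIF4G until mTORC1 phosphorylates them. Stellate cells that make scar tissue secrete much collagen, which needs sustained protein synthesis.

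Most initiation factor transcripts differed little between untreated and Rk1-treated cells. Of the 47 tested, 7 fell and 3 rose in edgeR's quasi-likelihood test at a Benjamini-Hochberg adjusted p under 0.05. The genes that fell were Eif5a, Eif2b3, Eif3d, Eif2s2, Eif1a, Eif3i and Eif3g, and those that rose were Eif4e3, Eif4ebp2 and Eif4g3. Together 21.3% of the tested members were called, and 22.0% of all tested genes were, so the members were called about as often as all tested genes. By direction, 14.9% of the members fell against 10.5% of all tested genes, and 6.38% rose against 11.5%. Of the 8799 genes at least as abundant as the least abundant member, 26.8% were called, with 12.3% lower and 14.6% higher. The log2 fold changes ranged from -0.32 to 0.51 with a median of -0.04, and the median over all tested genes was 0.0011. A log2 change larger than 0.2 in either direction was found for 8 members (17.0%), for 37.0% of all tested genes and for 28.9% of the 8799 genes at least as abundant as the least abundant member.

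**Figure D1:**
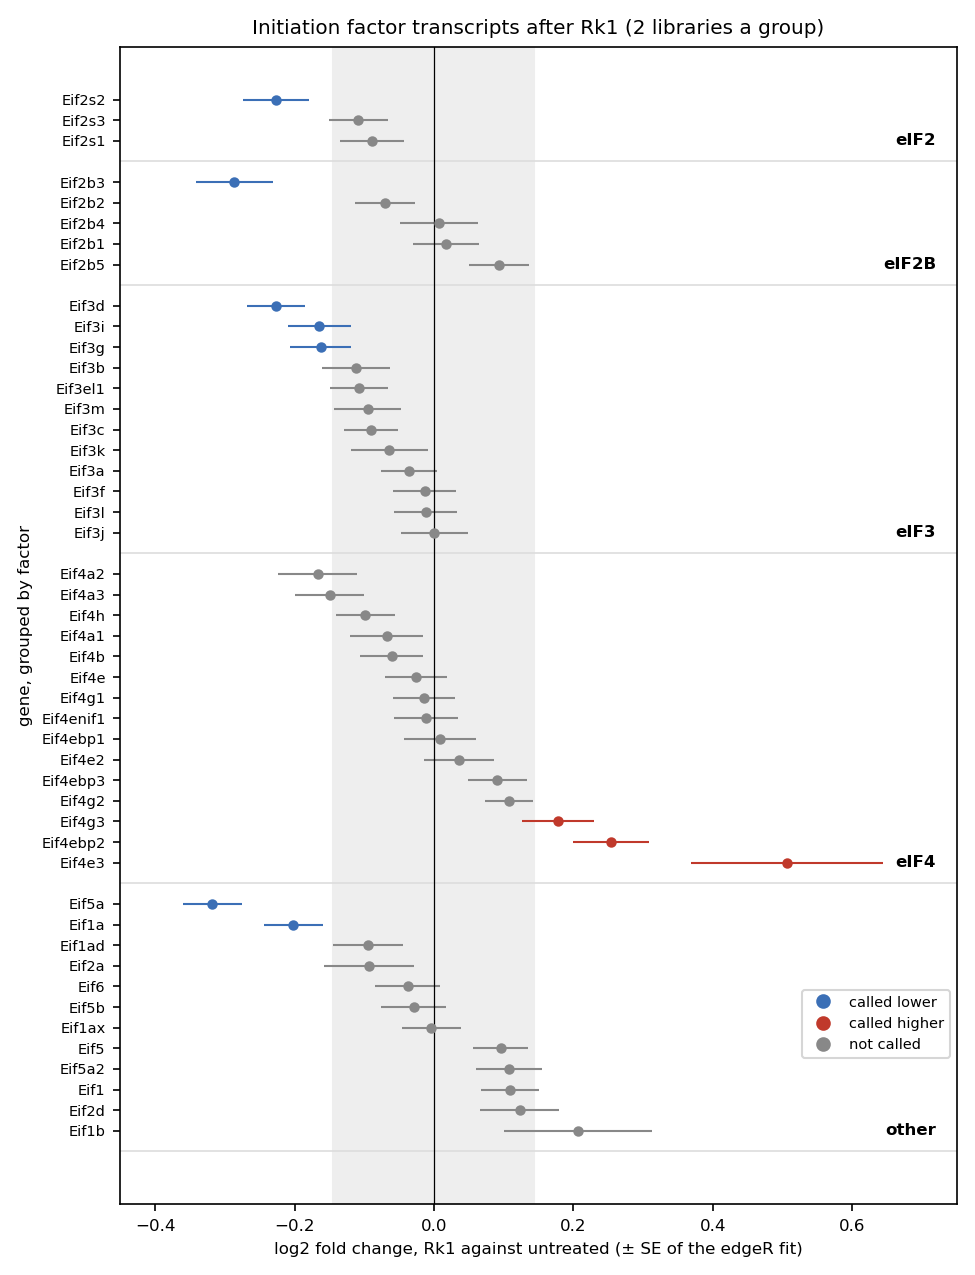
Log2 fold change of each of the 47 tested initiation factor genes, Rk1 against untreated, with the standard error of the edgeR fit (x axis), by factor (y axis). Blue marks the 7 genes called lower, red the 3 called higher, and the grey band spans the middle quartiles of all tested genes; the 3 red points are all in the eIF4 group, and no blue point is.

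In 19 members both Rk1 libraries lay below both untreated libraries (40.4%, against 30.9% of all tested genes). In 10 members both lay above (21.3%, against 32.1%), and in 18 the groups overlapped. The calls were sensitive to single libraries, and over all tested genes calls also became fewer in each leave-out. The called numbers were 0 higher and 3 lower without untreated replicate 2, and 3 higher and 5 lower without Rk1 replicate 2. Leaving out either replicate 1 gave 1 higher and 4 lower. At an unadjusted p under 0.05, edgeR had 6 higher and 11 lower of the 47 tested members in the full data. Of all 12316 tested genes it had 2291 higher and 2139 lower, a similar share in total. DESeq2 called 0 higher and 4 lower, and it called 13.7% of all tested genes. Eif5a and Eif3d were called by edgeR whichever library was left out.

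**Figure D2:**
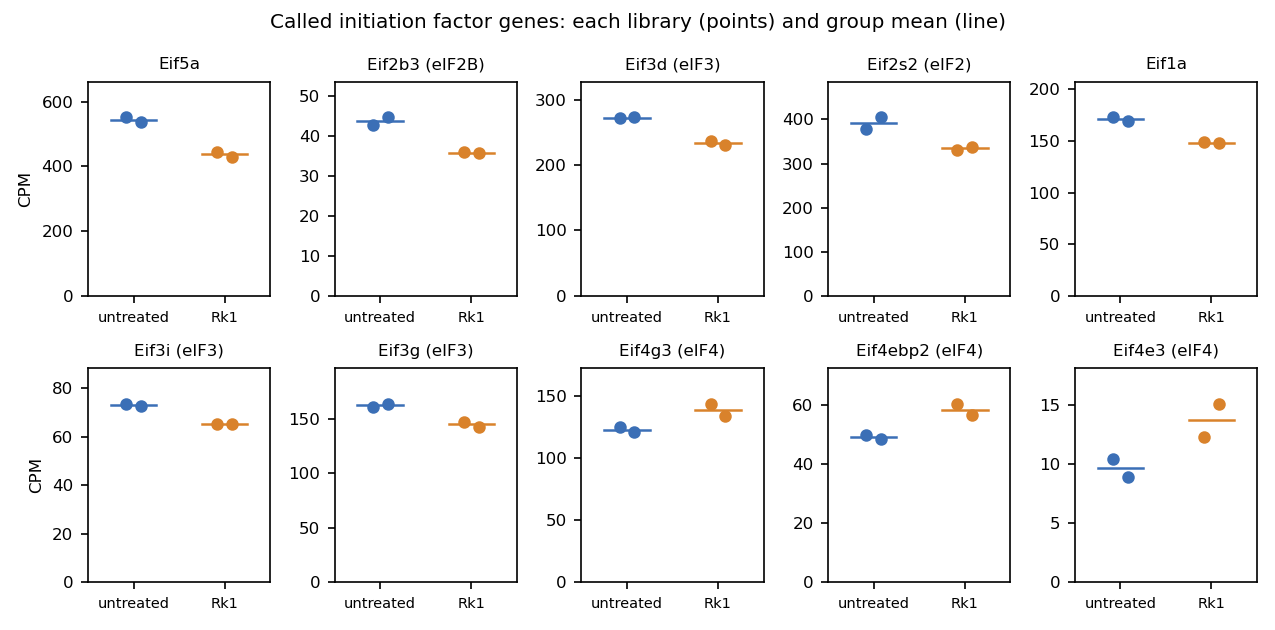
CPM of the 10 called initiation factor genes in each library (points) with the group mean (line), untreated in blue and Rk1 in orange, each y axis starting at 0. The step is small beside the level, as for Eif5a from 552 and 536 to 445 and 429 CPM. The groups do not overlap in any of the 10, but a test on these same values picked them, which favours such groups. Of all tested genes, 30.9% had both Rk1 libraries below both untreated libraries and 32.1% had both above.

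eIF2 transcripts were lower with Rk1 in all 3 tested subunits, and 1 of them fell, as did 10.5% of all tested genes. Eif2s2, which encodes the beta subunit that contacts eIF5 and eIF2B, stood at 378 and 405 CPM in the untreated libraries and 331 and 338 CPM with Rk1. The Rk1 libraries were the lower pair, and the fitted change was -0.23 ± 0.05 (log2 ± SE, adjusted p = 0.014), a fall of 1.17-fold. This call was lost without untreated replicate 2 or without Rk1 replicate 1. Eif2s1, the alpha subunit that carries the regulatory phosphorylation site, had 202 and 212 CPM untreated and 192 and 197 with Rk1 (-0.09 ± 0.05, adjusted p = 0.21). Eif2s3, the GTP-binding gamma subunit, had 232 and 228 CPM untreated and 210 and 216 with Rk1 (-0.11 ± 0.04, adjusted p = 0.11). For Eif2s1 and Eif2s3 the Rk1 libraries were also the lower pair, but the difference did not pass. Both Rk1 libraries thus lay below both untreated ones in all 3 subunits, as in 30.9% of all tested genes. Eif2s3y, the Y-linked gamma subunit gene, had no counts in any library, and a floor of 3 counts puts its level below 0.167 CPM even in the library with the fewest reads. The eIF2 median log2 fold change was -0.11 and lay between -0.14 and -0.09 under every alternative tried.

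Of the 5 eIF2B genes, Eif2b3 alone was called, or 20% against 22.0% of all tested genes. It encodes the gamma subunit, a partner of the catalytic epsilon subunit, and had 42.7 and 44.6 CPM untreated and 35.8 and 35.7 with Rk1. The difference of -0.29 ± 0.06 (adjusted p = 0.011) is a fall of 1.22-fold, and it was not called without untreated replicate 2 or by DESeq2. Eif2b5, the catalytic epsilon subunit, moved the other way without passing, from 142 and 140 to 152 and 149 CPM (0.09 ± 0.04, adjusted p = 0.16). Eif2b2 (-0.07 ± 0.04), Eif2b1 (0.02 ± 0.05) and Eif2b4 (0.01 ± 0.06), which form the regulatory part of the complex, did not pass either. The subunits of this complex thus did not share a direction, with a median log2 fold change of 0.01. Eif2b1 lies across 12394 bases of Ddx55 on the opposite strand, so without a stated strand setting some of its reads could belong to either gene.

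Of the 12 eIF3 genes, 3 fell, or 25% against the 10.5% of all tested genes. With any 1 library left out, 1 of the 12 was called lower, Eif3d. Their log2 fold changes were below 0 in 11 of 12 genes, with a median of -0.09. Under DESeq2 size factors or upper-quartile scaling all 12 were below 0, and 10 were without Rk1 replicate 2. The median stayed between -0.12 and -0.08 under every alternative tried. In 7 of the 12 (58.3%, against 30.9% of all tested genes) both Rk1 libraries lay below both untreated ones. In the other 5 the groups overlapped. Eif3d, whose protein can itself bind the cap of some mRNAs, had 272 and 273 CPM untreated and 236 and 230 with Rk1. That is a fall of 14.6% (-0.23 ± 0.04, adjusted p = 0.0085), called whichever library was left out. Eif3g, a subunit with an RNA recognition motif, had 161 and 164 CPM untreated and 147 and 143 with Rk1 (-0.16 ± 0.04, adjusted p = 0.036). Eif3i, a propeller-shaped subunit that sits beside Eif3g, had 73.6 and 72.5 CPM untreated and 65.2 in each Rk1 library (-0.16 ± 0.05, adjusted p = 0.039). Both pairs of Rk1 values lie below the untreated ones, but neither Eif3g nor Eif3i was called by DESeq2 or when any 1 library was left out. An expressed pseudogene of Eif3i, at 44.6 to 47.2 CPM, could share reads with it, so the value of Eif3i is uncertain.

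The scaffold subunits Eif3a and Eif3c, which anchor the complex, were at 714 and 727 and at 526 and 536 CPM untreated. With Rk1 they were at 714 and 691 and at 498 and 499 CPM, and neither passed (-0.04 ± 0.04 and -0.09 ± 0.04). The remaining subunits, Eif3b, Eif3el1, Eif3f, Eif3j, Eif3k, Eif3l and Eif3m, ranged from -0.11 to 0.0002 and did not pass. Eif3j, a loosely bound subunit, showed the smallest difference of all members, with 72.4 and 70.1 CPM untreated and 70.1 and 72.4 with Rk1. Subunit E is represented by Eif3el1, described as subunit E-like 1. Subunit H is described under the symbol LOC108348062 on 2 gene identifiers and so falls outside the naming rule. Its more abundant copy had 150 and 142 CPM untreated and 131 and 128 with Rk1 and fell (-0.17 ± 0.05, adjusted p = 0.041), and the other copy had at most 6.27 CPM and did not pass. The call of the more abundant copy was kept only without untreated replicate 2 among the 4 leave-outs and was not made by DESeq2. The choice of LOC108348062 was made with its values known.

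The 3 eIF3 genes that fell are shown with the start of their transcription unit, because the core letters that ETS factors bind, CCGGAAG, stand upstream of each. Eif4ebp2, which rose, is shown beside them because it holds the same letters. The sequences are from RefSeq on assembly GRCr8, which is not the build of the counts, and run 5′ to 3′ to 30 bases past the annotated start. Capitals mark CCGGAAG on either strand (read as CTTCCGG on the other).
Eif3d, chr7:111432711-111432879, minus strand: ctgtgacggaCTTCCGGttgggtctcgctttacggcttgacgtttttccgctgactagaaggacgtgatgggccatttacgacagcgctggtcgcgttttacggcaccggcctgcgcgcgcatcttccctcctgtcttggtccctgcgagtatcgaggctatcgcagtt
Eif3g, chr8:27709917-27710016, minus strand: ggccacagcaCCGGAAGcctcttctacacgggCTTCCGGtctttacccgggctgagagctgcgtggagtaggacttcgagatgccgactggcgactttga
Eif3i, chr5:147226881-147226980, minus strand: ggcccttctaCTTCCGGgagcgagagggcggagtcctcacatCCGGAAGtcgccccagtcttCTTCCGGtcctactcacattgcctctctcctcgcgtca
Eif4ebp2, chr20:29942893-29942946, minus strand: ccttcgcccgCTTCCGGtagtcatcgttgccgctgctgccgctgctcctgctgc
Of the 48 members, 44 matched a promoter entry, and Eif3el1, Eif4b, Eif4e3 and Eif4ebp1 did not. These 44 genes had 47 entries, and a member counted as holding a motif if any of its entries did. The shares of promoters count single entries, so the units differ slightly. In the window from 250 bases before to 50 bases after the start, CCGGAAG was found in 17 of these 44 genes (38.6%), in 8.75% of all 33469 promoters and in 18% of the 10012 promoters of tested genes. Besides the 3 that fell, it was found in 2 of the 8 matched eIF3 genes that were not called, Eif3k and Eif3m. Of all 7 members that fell it was found in 4, and of the 2 matched members that rose in 1. This motif was picked out of 8 searched on both strands, with the calls known, and a match describes letters only. The others are given as the share of matched members, of promoters of tested genes and of all promoters. CACGTG was found in 20.5%, 9.16% and 6.42%, TGATGNAA in 4.55%, 1.96% and 3.98%, and GCGCATGC in 9.09%, 5.32% and 2.47%. TATAAA was found in 4.55%, 6.61% and 14.2%, CCAAT in 34.1%, 38.0% and 37.5%, and GGGCGG in 70.5%, 62.8% and 33.1%. CTTCC, which lies inside CTTCCGG, was found in 93.2%, 74.6% and 70.1%. Beside the tested genes, the members thus differed less in the GC box GGGCGG than beside all promoters. A further pattern, a C at the start site followed by at least 4 C or T, was found in 1 member, Eif2a, and in 2.63% of all promoters. It was sought in the 44 matched members alone and rests on the annotated start base. Its share in promoters of tested genes is not given, so no lack of such starts can be read from it.

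In the eIF4 group, 3 of 15 genes rose, or 20% against 11.5% of all tested genes. Of the 8799 genes at least as abundant as the least abundant member, 14.6% rose. The members called were a low-abundance cap-binding paralog, an inhibitor and a less abundant eIF4G paralog. Eif4e3, an atypical cap-binding protein, had 10.4 and 8.9 CPM untreated and 12.3 and 15.1 with Rk1. Its change of 0.51 ± 0.14 (adjusted p = 0.038), or 1.42-fold, was the largest among the members, and it rests on 162 to 276 counts a library. Without untreated replicate 2 or without Rk1 replicate 2 it was not called. Eif4ebp2, an inhibitor that holds eIF4E away from eIF4G, had 49.6 and 48.3 CPM untreated and 60.3 and 56.4 with Rk1, a rise of 19.2% (0.25 ± 0.05, adjusted p = 0.016). Eif4g3, a paralog of the scaffold eIF4G1, had 125 and 121 CPM untreated and 144 and 134 with Rk1 (0.18 ± 0.05, adjusted p = 0.048). Eif4ebp2 and Eif4g3 were called only without Rk1 replicate 2 among the 4 leave-outs, and Eif4g3 was also lost with DESeq2 size factors in edgeR, upper-quartile scaling or a filter at a mean of 1 CPM. DESeq2 called none of the 3.

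The main cap-binding protein and its main inhibitor did not pass. Eif4e had 168 and 164 CPM untreated and 166 and 160 with Rk1 (-0.03 ± 0.04, adjusted p = 0.73), with overlapping groups. Eif4ebp1, the best-known eIF4E-binding protein, had 81.6 and 87.7 CPM untreated and 85.2 and 85.0 with Rk1 (0.0085 ± 0.05, adjusted p = 0.93). Eif4e2, a cap-binding repressor, also overlapped, at 100 to 107 CPM. Eif4ebp3 did not pass (0.09 ± 0.04), and its gene model holds 8236 exonic bases over 105910 bases, against 831 exonic bases for Eif4ebp1, so its reads need not come from the small binding protein. Eif4enif1, which carries eIF4E into the nucleus, was at 62.1 to 63.5 CPM in all 4 libraries.

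None of the 3 eIF4A helicase genes passed. Eif4a2 had 541 and 571 CPM untreated and 471 and 519 with Rk1 (-0.17 ± 0.06, adjusted p = 0.075). Eif4a3, the paralog that works in the exon junction complex, had 327 and 324 CPM untreated and 305 and 282 with Rk1 (-0.15 ± 0.05, adjusted p = 0.070). Eif4a1, the main helicase of cap-dependent initiation, overlapped between groups (-0.07 ± 0.05), and its difference turned to 0.0023 without Rk1 replicate 2. Among the settings without a block, Eif4a2 and Eif4a3 were called lower with robust dispersions and with upper-quartile scaling, Eif4a2 also without Rk1 replicate 2 and Eif4a3 without Rk1 replicate 1. The helicase cofactors Eif4b (-0.06 ± 0.04) and Eif4h (-0.10 ± 0.04) did not pass. Of the eIF4G genes, Eif4g1 was at 530 and 506 CPM untreated and 524 and 502 with Rk1 (-0.01 ± 0.04). Eif4g2, an eIF4G relative that lacks the eIF4E-binding part, was at 1265 and 1245 CPM untreated and 1349 and 1356 with Rk1 (0.11 ± 0.03, adjusted p = 0.067). The groups of Eif4g2 do not overlap, and among the same settings it was called higher when libraries were scaled by their totals. The 15 genes of the eIF4 group had a median of -0.01, whose sign changed between alternatives (-0.04 to 0.01).

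Among the other factors, Eif5a fell most, and Eif1a fell as well. These 2 of 12 genes are 16.7%, while 10.5% of all tested genes fell and 22.0% were called in either direction. Eif5a encodes the hypusine-bearing protein that helps ribosomes through difficult peptide bonds in elongation and termination, in spite of its name. It had 552 and 536 CPM untreated and 445 and 429 with Rk1, a fall of 19.8% (-0.32 ± 0.04, adjusted p = 0.0023). Over the alternatives tried its adjusted p ran from 8.2e-08 to 0.010, lower each time. A gene of the same strand, AABR07029863.3, lies over 1189 of its bases and had 37 counts in all. Its paralog Eif5a2 was at 53.4 and 53.8 CPM untreated and 58.4 and 57.1 with Rk1 and did not pass (0.11 ± 0.05, adjusted p = 0.15). Dhps and Dohh, the enzymes that make hypusine, did not pass (0.01 ± 0.04 and 0.05 ± 0.06). Eif5a lies on chromosome 10 of Rnor_6.0 at 56527085 to 56531483, minus strand. The start of its gene is shown because it is the member with the smallest adjusted p, with CACGTG, the E-box bound by MYC and related factors, in capitals.
Eif5a, chr10:55143192-55143437, minus strand: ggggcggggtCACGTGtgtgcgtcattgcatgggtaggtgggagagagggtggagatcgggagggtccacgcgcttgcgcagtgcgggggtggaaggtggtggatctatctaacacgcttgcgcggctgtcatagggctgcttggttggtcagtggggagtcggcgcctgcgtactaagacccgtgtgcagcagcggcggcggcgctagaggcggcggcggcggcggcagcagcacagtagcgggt
Myc itself had 24.2 and 38.9 CPM untreated and 20.4 and 30.5 with Rk1, did not pass (-0.31 ± 0.24) and overlapped between groups. CACGTG was found in 1 of the 7 members that fell, in 20.5% of matched members and in 9.16% of promoters of tested genes. Whether MYC acts on Eif5a was not tested.

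Eif1a, which helps the ribosome scan for a start codon, had 173 and 169 CPM untreated and 149 and 148 with Rk1 (-0.20 ± 0.04, adjusted p = 0.015). It was called in 1 of the 4 leave-outs, the one without untreated replicate 2. Its X-linked near-copy Eif1ax was at 332 and 321 CPM untreated and 329 and 323 with Rk1 (-0.0037 ± 0.04). Since near-identical genes can divide reads, the value of Eif1a is uncertain. Eif1, which guards start codon choice, was at 651 and 680 CPM untreated and 707 and 728 with Rk1 (0.11 ± 0.04, adjusted p = 0.11). Eif5, the GTPase-activating protein of eIF2, was at 356 and 352 CPM untreated and 381 and 375 with Rk1 (0.10 ± 0.04, adjusted p = 0.13). Both Eif1 and Eif5 have non-overlapping groups and did not pass. Eif1b, a paralog of Eif1, had 26.5 and 24.7 CPM untreated and 32.7 and 26.4 with Rk1 (0.21 ± 0.11, adjusted p = 0.21). Eif5b, which joins the ribosomal subunits, Eif6, which keeps the large subunit free, Eif1ad, Eif2a and Eif2d lay between -0.09 and 0.12 and did not pass. Eif2a and Eif2d load initiator tRNA in ways that do not need eIF2. Eif2a shares 33 bases with Serp1 on the opposite strand, whose reads could count for either gene.

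**Figure D3:**
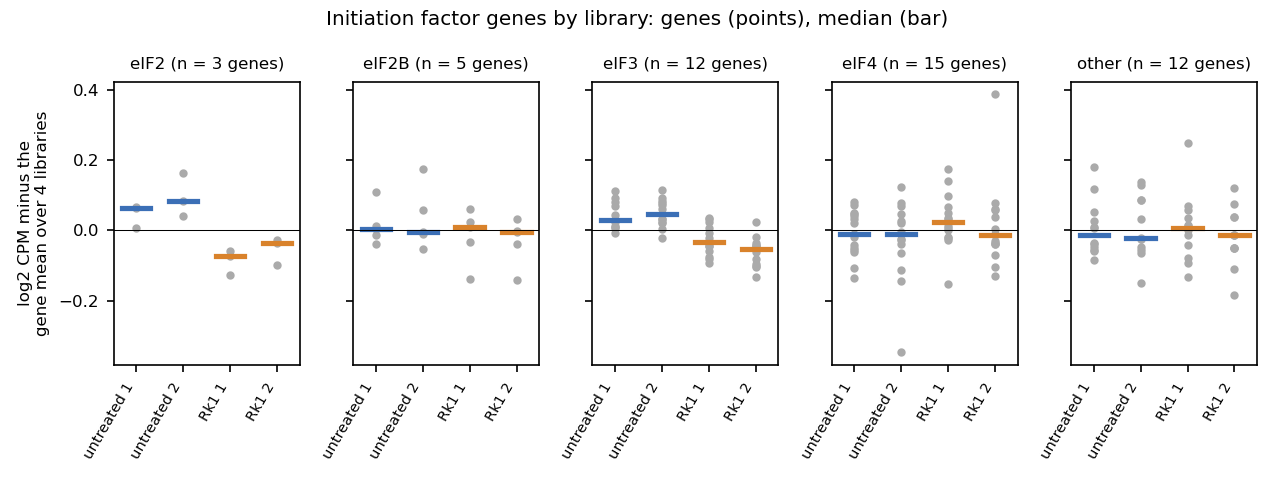
Log2 CPM of each tested member minus its mean over the 4 libraries (y axis), by library (x axis) and factor, with the median of each factor as a bar. The eIF2 and eIF3 medians are above 0 in both untreated libraries and below 0 in both Rk1 libraries, and the other medians lie within 0.03 of 0.

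Seen library by library, the median of the centred log2 CPM of eIF3 was 0.03 and 0.05 in the untreated libraries and -0.03 and -0.05 with Rk1. For eIF2 it was 0.06 and 0.08 untreated and -0.07 and -0.03 with Rk1. For eIF2B, the eIF4 group and the other factors the medians lay between -0.02 and 0.02 in every library. The shift of eIF2 and eIF3 is thus seen in both libraries of each group, and it is small.

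On a scale per exon length (TPM, computed from the counts and the deposited exon lengths and summing to the same total in each library) the members spanned from 8.51 for Eif4e3 to 911 for Eif1. These levels are means over the 4 libraries. Eif4a1 (763 TPM), Eif5a (749) and Eif4a2 (511) followed Eif1. Eif5a stood above Eif4a1 in untreated cells (829 ± 16.9 against 779 ± 10.6 TPM) and below it with Rk1 (669 ± 10.4 against 747 ± 43.9). Within eIF2 the beta, alpha and gamma subunit genes stood at 462, 267 and 109 TPM, so the transcripts were not in equal amounts. Within eIF3 the level ran from 71.9 TPM (Eif3j) to 463 (Eif3el1), and in eIF2B from 34.0 (Eif2b3) to 123 (Eif2b2). Eif2b3 was therefore the least abundant eIF2B transcript per length. The cap-binding Eif4e stood at 125 TPM, Eif4g1 at 197 and Eif4ebp1 at 187, with Eif4ebp2 lower at 56.1. The rise of Eif4ebp2, from 51.0 ± 0.91 to 61.2 ± 2.3 TPM, left it below Eif4ebp1, at 186 ± 9.5 untreated and 188 ± 1.6 with Rk1. Eif5a exceeded Eif5a2 (20.9 TPM) in every library, and Eif4e3 was the scarcest cap-binding transcript, at 7.00 ± 0.76 TPM untreated.

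**Figure D4:**
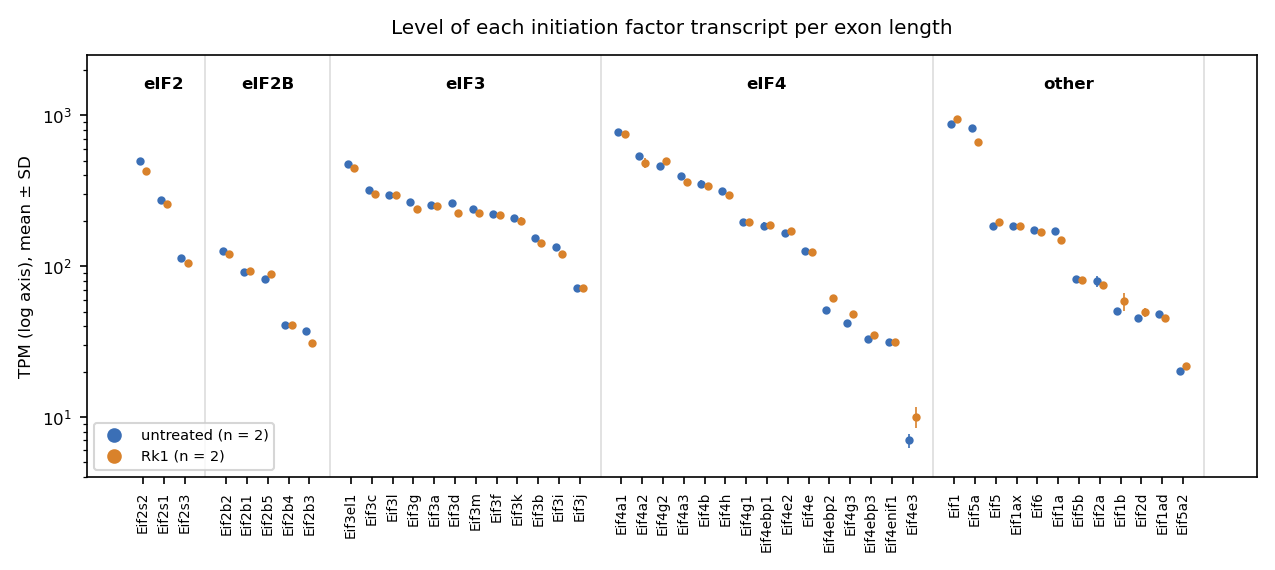
TPM of each tested member (log axis, mean ± SD, n = 2) in untreated (blue) and Rk1 libraries (orange), ordered by level within each factor. Levels differ between members by far more than between groups, from 8.51 for Eif4e3 to 911 for Eif1.

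Among other genes of translation and its control, Ddit4, Deptor and Mknk2 of mTORC1 and MNK signalling and the elongation kinase Eef2k had larger called log2 changes than any initiation factor. In the full data edgeR called 22.0% of all tested genes, 10.5% lower and 11.5% higher, the background for its counts that follow. DESeq2 called 13.7% of them, and each leave-out also called fewer genes than the full data. At an unadjusted p under 0.05, edgeR had 4430 of the 12316 tested genes. Of the 4 eIF2 kinases, Eif2ak4 (GCN2, which senses uncharged tRNA) rose and Eif2ak2 (PKR, an interferon-induced sensor of double-stranded RNA) fell. Eif2ak4 went from 63.4 and 60.3 to 79.7 and 80.9 CPM (0.38 ± 0.05, adjusted p = 0.0020). Eif2ak2 went from 547 and 476 to 358 and 398 CPM (-0.44 ± 0.08, adjusted p = 0.0073). Both were called whichever library was left out, and Eif2ak1 (0.14 ± 0.05) and Eif2ak3 (-0.03 ± 0.06) did not pass. Of 9 phosphatase subunits and kinase modulators, Ppp1r15a, which directs dephosphorylation of eIF2 alpha, rose (0.32 ± 0.09, adjusted p = 0.044). Dnajc3, a co-chaperone that restrains eIF2 kinases, fell (-0.24 ± 0.04, adjusted p = 0.0085). Ppp1r15a was not called without untreated replicate 1 or Rk1 replicate 2, with robust dispersions or with upper-quartile scaling.

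Of 16 genes of mTORC1, S6 kinase and MNK signalling, 4 rose and 2 fell. Ddit4, an mTORC1 inhibitor induced by stress, rose 2.22-fold from 69.5 and 88.9 to 158 and 193 CPM (1.15 ± 0.13, adjusted p = 0.0010). Mknk2 and Mknk1, the kinases that phosphorylate eIF4E, rose by 0.54 ± 0.05 and 0.40 ± 0.07. Deptor, an mTOR inhibitor, fell from 50.1 and 50.2 to 33.3 and 31.5 CPM (-0.63 ± 0.06, adjusted p = 4.1e-04). These 4 genes were called whichever library was left out, but Ddit4 was not called with robust dispersions (adjusted p = 0.074). The other calls were weaker, with the rise of Mtor lost in all 4 leave-outs and the fall of Larp1 in 3 of them. The list median was 0.04. Changes in these transcripts say nothing of the phosphorylation of eIF2 alpha, eIF4E or its binding proteins, which was not measured.

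Of 8 tested elongation factor genes, 5 fell and 1 rose, and the list median was -0.23. The fallen genes were Eef1g, Eef1b2, Eef1d, Eef2 and Eef1e1, the last of which works with tRNA synthetases. Eef1g went from 1307 and 1347 to 1075 and 1010 CPM (-0.35 ± 0.04, adjusted p = 0.0018) and Eef1b2 from 312 and 326 to 254 and 247 CPM (-0.35 ± 0.04, adjusted p = 0.0019). Both are subunits of the exchange factor that recharges the tRNA-delivering elongation factor, as is Eef1d, which fell by 0.27 ± 0.05. Eef2k, the kinase that inhibits elongation factor eEF2, rose 1.63-fold from 31.5 and 31.6 to 55.6 and 47.1 CPM (0.70 ± 0.08, adjusted p = 0.0013). When untreated replicate 2 or Rk1 replicate 2 was left out, 3 elongation genes were called lower, Eef1b2, Eef1d and Eef1g. Of 7 further initiation, recycling and reinitiation genes, 4 fell, among them Denr (-0.23 ± 0.05), Bzw2 (-0.25 ± 0.05) and the recycling factor Abce1 (-0.19 ± 0.04), and Bzw1 rose (0.16 ± 0.04). These calls were fragile, with 0 fallen without untreated replicate 2, 1 without untreated replicate 1, and 2 without either Rk1 replicate. The one rise was lost whichever library was left out and with upper-quartile scaling.

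**Figure D5:**
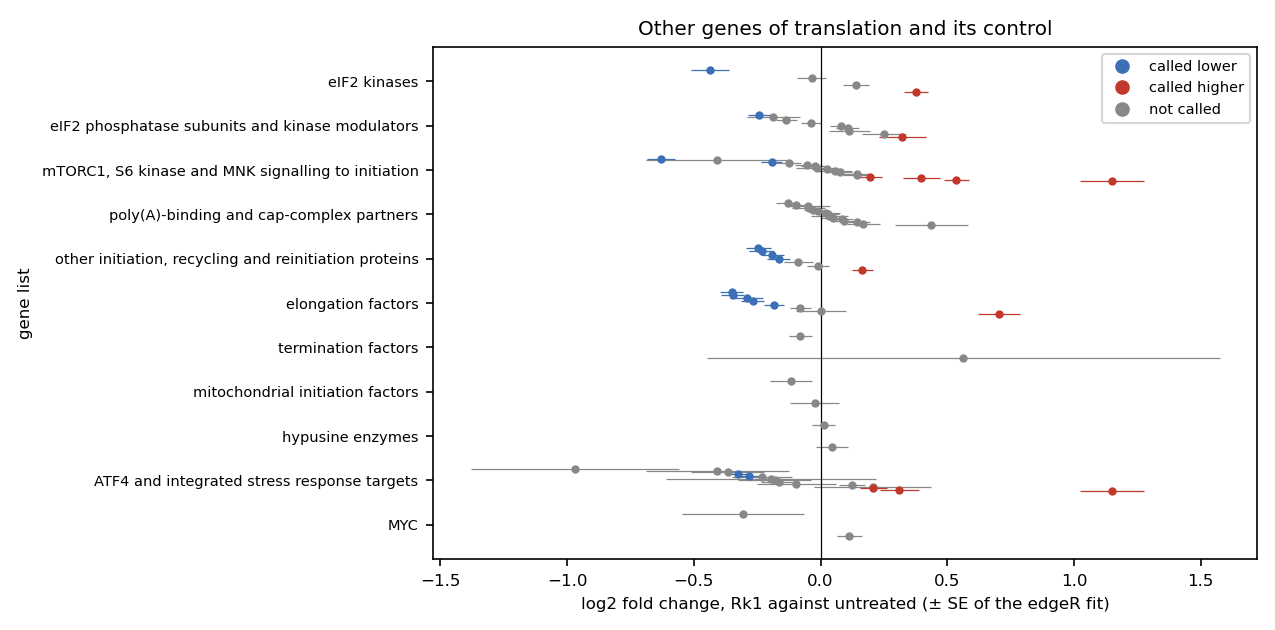
Log2 fold change ± SE of the tested genes of 11 other lists of translation and its control, Rk1 against untreated, blue for called lower, red for called higher and grey for not called. The called change farthest from 0 is that of Ddit4 (1.15), which is in 2 of the lists, and 5 of 8 elongation factor genes lie to the left as called.

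Of 15 poly(A)-binding and cap-complex partners, 0 were called by edgeR, DESeq2 or limma-voom, and 5 had an unadjusted p under 0.05 in edgeR. When a library was left out, Angel1 or Gigyf1 was called higher in 3 of the 4 cases. In edgeR, robust dispersions called Angel1 higher, and upper-quartile scaling called Ddx3x and Pabpc4 lower. Pabpc1, the main poly(A)-binding protein, was at 1896 to 2007 CPM. The 2 tested termination genes, the 2 mitochondrial initiation factors, the 2 hypusine enzymes and the 2 tested MYC family genes gave 0 calls by those 3 tools and 0 at an unadjusted p under 0.05.

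Of 15 genes of ATF4, the transcription factor made when eIF2 is phosphorylated, and its stress response targets, 3 rose and 2 fell. The genes that fell, Phgdh (-0.33 ± 0.04) and Psat1 (-0.28 ± 0.05), make serine. Those that rose were Ddit4, as given above, Vldlr (0.31 ± 0.08) and Cebpb (0.21 ± 0.05). Atf4 had 668 and 811 CPM untreated and 484 and 664 with Rk1 and did not pass (-0.37 ± 0.14, adjusted p = 0.11). Replicate 2 was above replicate 1 in both groups for Atf4 and for Chac1 (32.6 and 63.1 CPM untreated, 13.9 and 34.6 with Rk1), Trib3 (57.9 and 115, 43.8 and 106) and Sesn2 (67.7 and 110, 48.1 and 85.3). The last 3 were chosen for mention with their values known. The number fallen in this list was 6 without Rk1 replicate 2 and 5 without untreated replicate 1, with Atf4 among them each time. DESeq2 called Ddit4 alone as higher, and so did edgeR without untreated replicate 1.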

How the data were processed

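Total RNA of 4 HSC-T6 libraries was sequenced. Per the labels' protocols, Trizol was used for extraction and a VAHTS Universal V6 kit for the libraries. HISAT2 and HTSeq are named in the submitters' processing notes; no version, strand setting or rule for multi-mapping reads was found. The authors deposited raw counts per Ensembl gene with exon lengths and Rnor_6.0 positions, per the file headers. Near-identical genes could thus share or lose reads.

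Genes were filtered with filterByExpr (minimum count 10, minimum total 15), scaled by TMM (factors 0.994 to 1.01) and tested with edgeR 4.0.16 (R 4.3.3) by the quasi-likelihood F-test (two-sided), modelling group alone, which leaves 2 residual degrees of freedom. P-values were adjusted by Benjamini-Hochberg over all 12316 genes. Standard errors are |log2 fold change| over the root of F. Centred levels used log2(CPM + 0.5). The steps were tested on simulated counts with a common dispersion, with changes placed in genes of a mean of at least 100 counts. They recovered 40% of 1.25-fold and 98% of 1.5-fold changes. Most member differences were below 1.25-fold, so a member that did not pass may still differ by a small amount. Its own standard error speaks of that amount more directly than this simulation, which gave all genes a common dispersion. Libraries of a group differed beyond sampling noise (chi-square 4.47 and 4.52 for each degree of freedom). Members and lists were chosen with earlier results of these data known. Every tested member could be named. The plan was to name up to 4 genes of each other list by adjusted p, and Atf4. Some lists have further genes named, with their values known. Alternatives were other scalings, filters, DESeq2 1.42.0, limma-voom (limma 3.58.1), robust dispersions, a stricter threshold, a replicate block and each library left out. Promoters came from RefSeq (GRCr8).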

Additional observations from a re-analysis of the deposited data

How the results depend on the processing

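Under 14 alternatives, the called members in each direction stayed within 1.5 times the 3 higher and 7 lower except as follows. DESeq2 called 0 higher and 4 lower, with 1690 of all genes called against 2711. At an adjusted p under 0.01, 0 were higher and 2 lower, with 1226 of all genes. Leaving out 1 library gave 0 to 3 higher and 3 to 5 lower, with 1710 to 2046 of all genes (fewest without untreated replicate 2). The lone library of a group is then assumed to vary like the other group. The shared replicate numbers do not pair the libraries by any label, and deviations of same-numbered libraries correlated at 0.059 across genes. With the replicate block, 4 members were higher and 9 lower and 3214 genes were called, and Eif4g2 was added to the higher and Eif4a2 and Eif4a3 to the lower members. In the ATF4 list 8 genes fell against 2, the added ones being Atf4, Chac1, Sesn2, Asns, Herpud1 and Slc7a11. The block also called Myc lower, and Gigyf1 higher and Ddx3x lower among the cap-complex partners. No called member changed sign. Of members not called, which were compared by their side of the threshold, 13 changed sign under some alternative, all with a log2 fold change of at most 0.07 in size. Scalings moved the median of all genes by at most 0.03.

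Chosen after the data were seen, adding genes described as initiation factors under other symbols gave 3 higher and 8 lower, and leaving out Eif1a, Eif3i, Eif4g1 and Eif4ebp3 gave 3 and 5. Adding the counts of the eIF4G1-like gene to Eif4g1 moved its log2 fold change from -0.01 to -0.09, still not called.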

Other observations

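Genes outside the naming rule gave some uneven values. LOC100912571, described as eIF4G1-like, had 1213 counts in untreated replicate 1 and 60, 66 and 57 in untreated replicate 2 and the Rk1 replicates (59.8, 3.3, 3.67 and 3.13 CPM). It was not called (adjusted p = 0.077). Gspt1, which encodes the release factor partner eRF3A and was chosen for mention with its values known, had 2.86 and 19.8 CPM untreated and 2.67 and 30.3 with Rk1. It was high in replicate 2 of both groups, and the cause was not tested.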
